A study of Homo sapiens with 31 samples.

Results

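The genes described here encode the parts of the pre-B-cell receptor, the first links of its signal, and the enzymes that cut and trim immunoglobulin genes. They were chosen by symbol, and the 10 members (CD79A, CD79B, VPREB1, IGLL1, VPREB3, BLNK, SYK, DNTT, RAG1 and RAG2) were all found among the 30667 gene identifiers of the table. The cells were NALM-6, an established human cell line of B-cell precursor acute lymphoblastic leukemia (pre-B-ALL), transduced with lentiviral vectors and sorted. The sample labels say that the cells were followed in vitro, while the design text of the series speaks of cells isolated from mouse bone marrow, and the labels are followed here. All 31 samples carried 1 of 4 vectors. The EF1a/sh-CTRL vector was in 9 samples, EF1a/sh-XIAP in 7, SFFV/sh-CTRL in 7 and, lastly, SFFV/sh-XIAP in 8, taken at day 4 (10 samples), day 10 (10) and day 13 (11) after transduction. The hairpin against XIAP, an inhibitor of caspases, or the control hairpin, directed at eGFP, sat in a microRNA scaffold on the transcript of a red fluorescent marker, driven by the EF1a promoter (termed moderate KD with sh-XIAP) or the stronger viral SFFV promoter (termed strong KD). Cells that had never been transduced are not analysed here, so a change that all vectors cause at every day could not be seen.

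A B-cell precursor that has joined its heavy chain gene makes a μ chain, which pairs with a surrogate light chain built from VPREB1 and IGLL1 (also called lambda-5), since no ordinary light chain is made yet. This pre-B-cell receptor signals through CD79A and CD79B, whose tails are phosphorylated and bind the kinase SYK, and SYK then phosphorylates the adaptor BLNK. The RAG1 and RAG2 proteins together make the breaks that start immunoglobulin gene joining, and DNTT (terminal transferase) adds bases at the joins, mostly while the heavy chain gene is being assembled.

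RNA was counted by unique molecular identifiers (UMIs) at the 3′ end of transcripts, with 1 UMI for each captured molecule, so a level in UMIs per 1000000 (CPM) is not divided by gene length and levels of different genes can be set side by side, apart from unequal capture. Totals ran from 312852 to 1153668 UMIs per sample, with a median of 751952 at day 4, 482267 at day 10 and 603822 at day 13. XIAP itself, the target of the hairpin, measured 8.80 ± 2.61 CPM (SD) in the 8 SFFV/sh-XIAP samples, against 8.98 ± 3.67 CPM in the 7 SFFV/sh-CTRL samples. It measured 10.0 ± 1.70 CPM in the 7 EF1a/sh-XIAP samples and 10.9 ± 4.34 CPM in the 9 EF1a/sh-CTRL samples. A fall of XIAP mRNA beyond the spread was thus not seen in these low counts, and the reason was not tested. The study reports a loss of XIAP protein in NALM-6 by Western blot, larger with the SFFV than with the EF1a promoter. Strong and moderate KD below stand for the constructs, not for a measured fall of XIAP mRNA.

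Promoters of some members hold the same motif of 6 letters, which is shown here as a description of their loci. RefSeq promoters on GRCh38.p14, from 250 bases before to 50 bases after the transcript start, were at hand for 9 of the members (11 promoters, of which 3 belong to SYK). The motif CAGGTG, an E-box of the kind bound by E2A (the product of TCF3), was found on either strand in promoters of 7 of the 9 members, that is in 8 of 11 promoters (72.7%), against 20.6% of all 35116 promoters of the same length. The 2 SYK promoters that hold it overlap and share a single copy. A stretch of 30 bases around it is given for each gene in the direction of transcription, with the motif in capitals (written CACCTG where it lies on the opposite strand).
VPREB1, chr22:22244571-22244600: cagagtctccagCAGGTGcttcctccctga
IGLL1, chr22:23580434-23580463: aggccaagctgaCAGGTGtgggaggcagtt
VPREB3, chr22:23754595-23754624: aaagtagatttcCACCTGctataactgcac
CD79A, chr19:41877086-41877115: ttgtggccaccaCAGGTGcagggagcagtt
SYK, chr9:90801603-90801632: cgggctcctctaCACCTGccgccgcctggg
BLNK, chr10:96271790-96271819: atagcatgCACCTGctggaaacagactata
DNTT, chr10:96304347-96304376: ttgccagggcagCACCTGtgaagccctggc

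The motif began 203 bases before the start of VPREB1, 161 before that of IGLL1, 187 before that of VPREB3, 181 before that of CD79A, 242 before that of BLNK and 75 before that of DNTT. The copy of SYK lay 204 bases before 1 of its starts and 15 bases after another. VPREB3 held a second copy 5 bases after its start. These distances are from the RefSeq starts, which differ for VPREB1 and CD79A, among others, from the GENCODE 29 gene starts given below. The remaining members with a promoter sequence, RAG1 and RAG2, did not hold these letters in the window. A related E-box, CAGCTG, was in the promoters of BLNK, RAG1 and IGLL1 (3 of 11 promoters, against 17.9% of all). The letters CCCNNGGG, the core bound by EBF1, were in those of VPREB1 and IGLL1 (2 of 11, against 19.1%), with 4 overlapping or separate matches for IGLL1. TGGGAA, an Ikaros core, was in those of SYK and VPREB3 (2 of 11, against 24.0%), and TATAAA was in none of the 11 (11.5% of all). These matches are a description of letters in a window, with the motifs chosen after the members were known, and binding was not measured. The transcripts for the factors were all present: TCF3 at 408 ± 35.3 CPM, EBF1 at 312 ± 26.4 CPM and IKZF1 at 56.7 ± 9.24 CPM (n = 31 each).

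All 10 members were expressed in all 31 samples, and their mean levels ran over a wide range, from 67.7 CPM for RAG2 to 1462 CPM for IGLL1. Of all genes in the table, 90.2% had a lower mean than RAG2 and 99.8% a lower mean than IGLL1, which ranked 57 among them. The spread between samples of a gene, a coefficient of variation of 5.01% to 15.0%, was small beside that range, though not beside each step between neighbouring genes.

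Of the surrogate light chain, IGLL1 (chr22:23573125-23580308, minus strand, GENCODE 29 on GRCh38) was the member with the highest level, at 1462 ± 88.9 CPM (SD, n = 31; lowest 1255, median 1453, highest 1600). VPREB1 (chr22:22244675-22245515, plus strand) was at 495 ± 35.5 CPM (lowest 397, median 498, highest 564). The ratio of IGLL1 to VPREB1 was 2.96 ± 0.246 and stayed between 2.53 and 3.49. This narrow range was not particular to the partners: the ratio of IGLL1 to DNTT was 2.04 ± 0.160 (lowest 1.70, highest 2.39). VPREB3 (chr22:23752743-23754468), a relative of VPREB1 that binds μ chains inside the cell and is no part of the surface receptor, was lower at 150 ± 17.0 CPM (lowest 114, median 147, highest 188).

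The signaling chains of the receptor were present at unequal levels. CD79B (chr17:63928740-63932354) was at 374 ± 28.4 CPM (lowest 307, median 372, highest 449), while its partner CD79A (chr19:41877120-41881372) was at 86.9 ± 12.8 CPM (lowest 58.9, median 87.5, highest 109). CD79B exceeded CD79A in each sample, by a ratio of 4.41 ± 0.840 (lowest 3.40, highest 7.31). The kinase SYK (chr9:90801787-90898549) was at 226 ± 19.8 CPM (lowest 188, median 227, highest 270) and its substrate BLNK (chr10:96191702-96271587) at 89.6 ± 12.3 CPM (lowest 57.0, median 88.4, highest 110). CD79A and BLNK rested on 25 to 122 and 20 to 110 UMIs per sample, so their values were less precise than those of the more abundant members.

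Of the recombination genes, DNTT (chr10:96304396-96338564, plus strand) had the highest level at 719 ± 36.0 CPM (lowest 649, median 721, highest 774), with the lowest coefficient of variation of the members, 5.01%. RAG1 (chr11:36510709-36593156, plus strand) was at 410 ± 33.9 CPM (lowest 321, median 412, highest 467). RAG2 (chr11:36575574-36598279, minus strand) was at 67.7 ± 10.2 CPM (lowest 47.3, median 65.9, highest 86.0), and its coefficient of variation, 15.0%, was the highest of the members, on 15 to 78 UMIs per sample. RAG1 thus exceeded RAG2 by a ratio of 6.18 ± 1.03 (lowest 4.19, highest 8.71). Their annotated spans overlap on opposite strands, and since it is not given in the sources used here whether counting used strand, the split of reads between them is uncertain.

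Read from the highest level down, the order was IGLL1, DNTT, VPREB1, RAG1, CD79B, SYK, VPREB3, BLNK, CD79A and RAG2. The upper gene of each neighbouring pair was above the lower in 31 of 31 samples, with 4 exceptions. VPREB1 was above RAG1 in 30 samples, RAG1 above CD79B in 26, and CD79A above RAG2 in 24. BLNK was above CD79A in 18 of 31, so these neighbours did not differ beyond their spread. Within groups of the same construct and day, the counts of 8 members scattered by 0.646 to 1.34 times the variance expected from counting alone (chi-square per degree of freedom, 19 degrees of freedom), against 1.67 for RAG1 and 1.97 for IGLL1. For most members the spread between replicates was therefore close to counting error. The study left out samples it took for outliers by PCA. In the labels, replicate 3 is absent for SFFV/sh-CTRL at days 10 and 13 and for EF1a/sh-XIAP at days 4 and 10. Replicate 2 is absent for SFFV/sh-XIAP at day 4. These are as many samples as the study left out. That they are the same samples is not stated, but the spread, and the p-values that rest on it, probably leave out outlying samples.

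Markers of the stages before and after were set beside the members. IGHM, the μ heavy chain, was at 1086 ± 57.4 CPM (n = 31), which is 0.744 ± 0.0378 of the IGLL1 level, while IGHD, the δ chain of mature cells, was at 12.3 ± 6.43 CPM. The lambda constant genes IGLC7, IGLC3 and IGLC2 were at 2098 ± 191, 646 ± 68.9 and 428 ± 67.8 CPM, so transcripts of a light chain locus were abundant beside those of the surrogate light chain. Whether these are rearranged light chains or germline transcripts cannot be told apart from 3′ counts. The kappa constant gene IGKC and the lambda gene IGLC1 were looked up and were not among the counted identifiers, so their levels are unknown.

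Among the progenitor and pro-B markers, MME (CD10) was at 649 ± 35.4 CPM, CD9 at 576 ± 39.5 CPM and IL7R at 279 ± 28.6 CPM. Of the same list, SPN was at 95.4 ± 15.7 CPM and CD99 at 2.11 ± 1.60 CPM. The earlier markers CD34, KIT and FLT3 were at 1.46 ± 1.44, 4.13 ± 2.64 and 3.06 ± 2.33 CPM. Among mature B-cell markers, MS4A1 (CD20) was at 2.54 ± 2.505 CPM, FCER2 at 1.40 ± 1.29 CPM and CD40 at 0.391 ± 0.762 CPM. Others of that list were higher: TNFRSF13C, the BAFF receptor, was at 54.6 ± 9.42 CPM, and CD24, which B-cell precursors carry too, at 275 ± 27.2 CPM. These cells therefore held the defining transcripts of the labelled pre-B stage, the μ chain and the surrogate light chain, together with MME and the recombination genes, and had CD34 and MS4A1 transcripts near 0. DNTT, best known from the earlier pro-B stage, was next to IGLL1 in level among the members. SPN, from the progenitor and pro-B list, had a higher mean than the members CD79A, BLNK and RAG2.

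Markers of other lineages were low. The 4 measured T-cell markers summed to 24.9 to 54.4 CPM per sample, mostly from LCK (27.9 CPM) and TRAC (9.67 CPM), with CD3G at 0.545 CPM. The 7 measured myeloid markers summed to 5.47 to 44.7 CPM and the 3 erythroid ones to 0 to 5.29 CPM, against 3778 to 4349 CPM for the 10 members. Of the plasma cell markers, XBP1 and MZB1 were at 353 ± 31.5 and 342 ± 34.9 CPM, while SDC1 had 249 and PRDM1 27 UMIs over all samples.

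**Figure D1:**
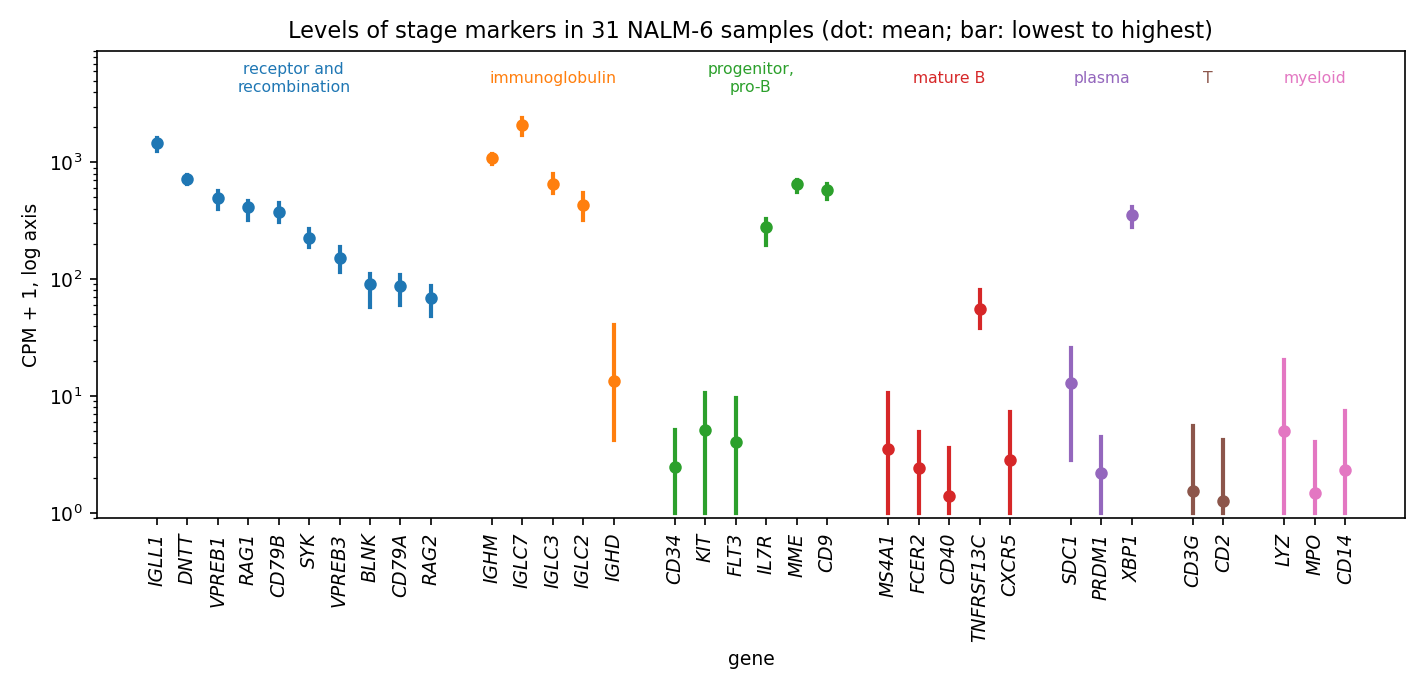
Mean level (dot) and lowest to highest value (bar) over 31 samples, as CPM + 1 on a log axis, for the 10 members and for markers of other stages and lineages. The members, IGHM, the lambda constant genes, MME, CD9, IL7R and XBP1 lie well above CD34, MS4A1 and the plotted T-cell and myeloid markers (CD3G, CD2, LYZ, MPO and CD14), whose bars reach 0 CPM. Only a part of each marker list is plotted. Left out are, among others, LCK (27.9 CPM), TRAC (9.67 CPM), CD33 (6.75 CPM), CEBPA (4.48 CPM), CD24 (275 CPM) and MZB1 (342 CPM).

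The comparison of sh-XIAP with sh-CTRL asks whether the receptor and recombination genes moved with the hairpin. None of the 10 members was called in any comparison of constructs by limma-voom at an adjusted p of at most 0.25 (Benjamini-Hochberg over all genes tested). For strong KD at days 10 and 13 (SFFV/sh-XIAP, n = 6, against SFFV/sh-CTRL, n = 4), 0.0792% of 17683 genes were called. An unadjusted p under 0.05 was found for 1 of the 10 members and for 986 of the 17683 genes. The edgeR quasi-likelihood test, which called 0.271% of genes there, and DESeq2, which called 0%, did not call a member either. For moderate KD at days 10 and 13 (EF1a/sh-XIAP, n = 5, against EF1a/sh-CTRL, n = 6), 0.017% of genes were called and 0 members had an unadjusted p under 0.05. The share was 0.00566% for strong minus moderate KD and 0.00566% for the promoter (SFFV/sh-CTRL against EF1a/sh-CTRL), again with 0 members under an unadjusted 0.05. At day 4 the shares were 0.0109% for strong KD, 0.0491% for moderate KD and 0.0164% for the promoter, and for the strong KD effect at day 13 minus that at day 4 the share was 0%. With so few genes called in all, the absence of members among them says little about the members.

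The intervals show what these comparisons could see. For strong KD at days 10 and 13 the fitted log2 fold changes of the 10 members had a median of -0.04, against -0.02 over all genes tested, and their 95% intervals reached from -0.45 (VPREB3) to 0.37 (BLNK) at the widest. IGLL1 was the most tightly bound, with an interval from -0.12 to 0.03, that is from 0.919 to 1.02 times the SFFV/sh-CTRL level. For DNTT the interval ran from -0.17 to 0.01, and for VPREB1 from -0.07 to 0.17. For moderate KD at days 10 and 13 the median of the members was 0.00 against 0.01 over all genes, and the intervals reached from -0.38 (BLNK) to 0.52 (CD79A). The promoter comparison gave a median of -0.01 against 0.01, with intervals from -0.48 (BLNK) to 0.48 (CD79A). The intervals of BLNK and CD79A were thus several times as wide as that of IGLL1.

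VPREB3 was the member with an unadjusted p under 0.05 with strong KD at days 10 and 13. At day 10 it was at 155 and 188 CPM with SFFV/sh-CTRL and at 133, 147 and 176 CPM with SFFV/sh-XIAP. At day 13 it was at 185 and 153 CPM with SFFV/sh-CTRL and at 146, 140 and 116 CPM with SFFV/sh-XIAP. The groups overlapped over both days. At day 13 alone they did not, with 2 against 3 samples, and the share of all genes without overlap was not counted. The fitted log2 fold change was -0.23 (SE 0.11), with an unadjusted p of 0.0459 and an adjusted p of 0.875 (limma-voom), and the exact permutation test within days gave a two-sided p of 0.08, where 0.01 is the smallest possible. The value hung on single choices: it was -0.14 without SFFV/sh-CTRL day 13 replicate 1, -0.11 at day 10 alone, -0.08 in a fit of all 31 samples and -0.40 with log2 total UMIs as a covariate (adjusted p from 0.481 to 0.982 in these, limma-voom).

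RAG2 was the corresponding member at day 4, where 866 of 18336 genes had an unadjusted p under 0.05 (limma-voom). It was at 80.2 and 86.0 CPM with SFFV/sh-XIAP and at 57.7, 65.5 and 63.4 CPM with SFFV/sh-CTRL, from 36 to 65 UMIs per sample. The samples did not overlap, but 2 against 3 samples have only 10 arrangements, and the share of all genes without overlap was not counted. By limma-voom, 0.0109% of genes were called there, and RAG2 was not. The fitted log2 fold change was 0.43 (SE 0.18), with an unadjusted p of 0.0227 and an adjusted p of 0.978 (limma-voom), and the exact permutation p of 0.1 is the smallest that 2 against 3 samples allow. With EF1a at day 4, RAG2 was at 82.0 and 74.5 CPM with sh-XIAP and at 72.2, 53.6 and 67.6 CPM with sh-CTRL. Every sh-XIAP sample of day 4 was thus above every sh-CTRL sample, and the share of all genes with this pattern was not counted. For moderate KD at day 4 the interval of its log2 fold change ran from -0.12 to 0.58 (unadjusted p of 0.189, adjusted p of 0.976, limma-voom). A test over both promoters was not run. At day 10 RAG2 was at 56.5, 83.1 and 61.8 CPM with SFFV/sh-XIAP and at 47.3 and 76.9 CPM with SFFV/sh-CTRL. These groups overlapped, as did those with EF1a.

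**Figure D2:**
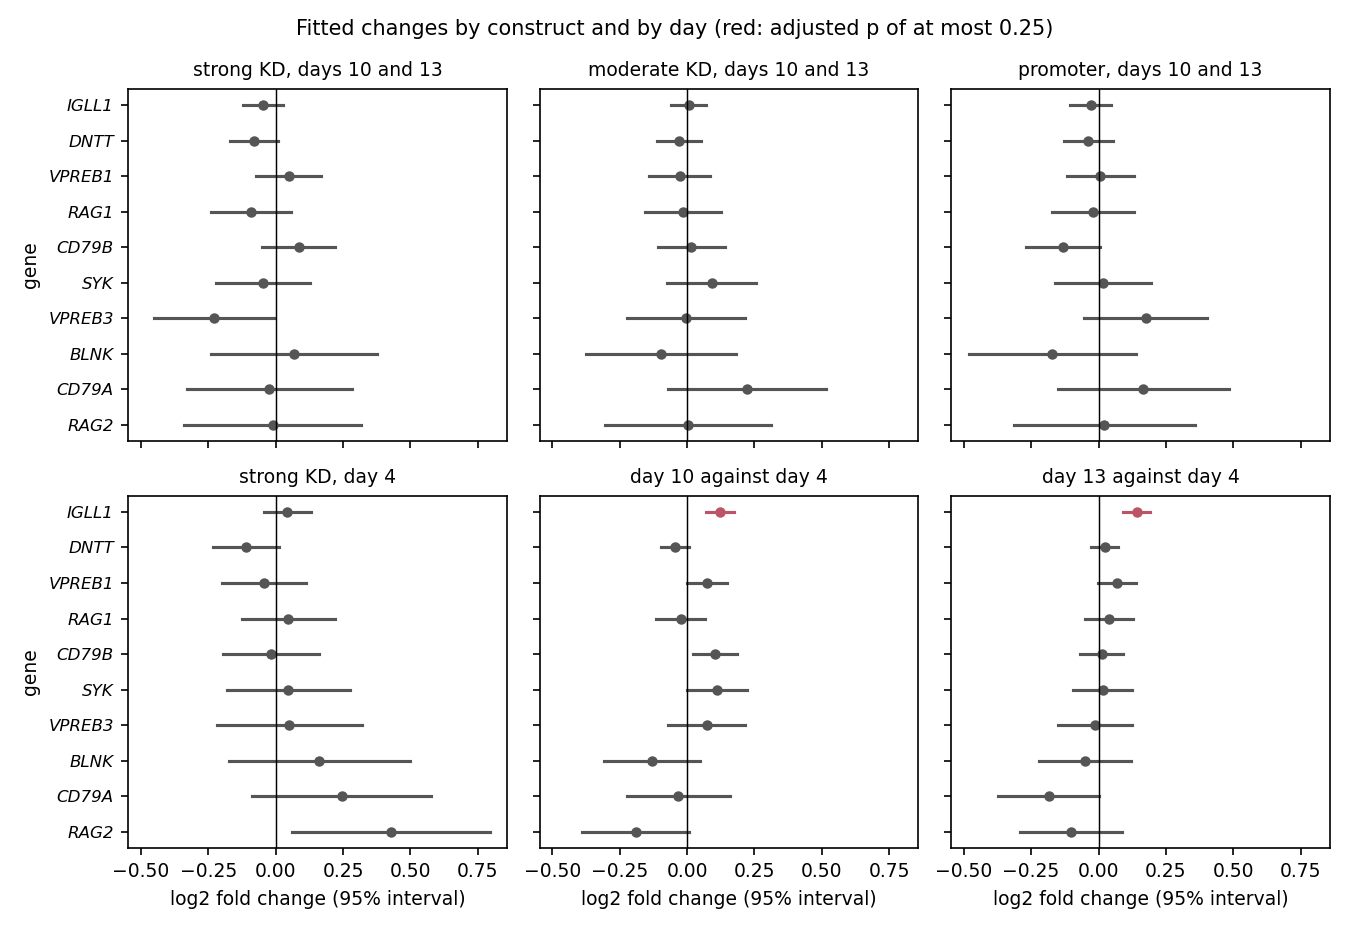
Fitted log2 fold changes (dots) with 95% intervals (lines) of the 10 members in 6 comparisons from limma-voom, in red where the adjusted p was at most 0.25. IGLL1 is red at day 10 and at day 13 against day 4, and no member is red in a comparison of constructs; the intervals widen towards the genes with few UMIs, such as RAG2 and CD79A.

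The comparison of days, with the construct as a term, asks how the members moved with time after transduction. IGLL1 rose from day 4 to both later days, and it was the 1 member called. Over the constructs its level was 1374 ± 64.1 CPM at day 4 (lowest 1255, median 1386, highest 1447, n = 10). At day 10 it was 1515 ± 68.0 CPM (lowest 1374, median 1543, highest 1598, n = 10), and at day 13 it was 1494 ± 64.7 CPM (lowest 1401, median 1500, highest 1600, n = 11). The ranges of the days overlapped at their edges.

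In single samples, IGLL1 with EF1a/sh-CTRL was at 1386, 1386 and 1328 CPM at day 4, at 1598, 1567 and 1543 CPM at day 10, and at 1500, 1450 and 1557 CPM at day 13. With EF1a/sh-XIAP it was at 1352 and 1300 CPM at day 4, at 1567 and 1543 CPM at day 10, and at 1461, 1401 and 1600 CPM at day 13. With both EF1a constructs every later sample was above every sample of day 4, and the share of all genes with this pattern was not counted. With SFFV/sh-CTRL the values were 1447, 1420 and 1255 CPM at day 4, 1547 and 1453 CPM at day 10, and 1418 and 1547 CPM at day 13. With SFFV/sh-XIAP they were 1437 and 1429 CPM at day 4, 1374, 1496 and 1463 CPM at day 10, and 1434, 1526 and 1538 CPM at day 13. The mean was higher at both later days in 4 of 4 constructs, though by 11.3 CPM with SFFV/sh-XIAP at day 10 against 125 to 228 CPM in the other constructs. The difference of the strong KD effect between day 13 and day 4 was tested and was not called for IGLL1 (adjusted p of 0.951, limma-voom), while the same difference at day 10 was not tested.

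The fitted log2 fold change of IGLL1 was 0.12 (SE 0.03) at day 10 against day 4, with an adjusted p of 0.0291 (limma-voom), and 0.283% of 17676 genes were called there. At day 13 against day 4 it was 0.14 (SE 0.03), with an adjusted p of 0.00145, and 0.481% of genes were called. These correspond to 1.09-fold and 1.10-fold. Two-sided exact permutation tests within constructs gave an unadjusted p of 0.00183 and 0.0012. The call rests on the tool: DESeq2 called IGLL1 in both comparisons (0.119% and 0.436% of genes), and the edgeR quasi-likelihood test, with log2 fold changes of 0.12 and 0.12, did not (adjusted p of 0.555 and 0.325, with 0.192% and 0.43% of genes called). The median depth was higher at day 4 than at the later days, with overlapping ranges, and with log2 total UMIs as a covariate IGLL1 was still called. The days were harvested at different times, and time after transduction and harvest cannot be told apart.

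IGLL1 is a relative of the lambda constant genes, and the values of these were placed beside it. Over 413 aligned bases IGLL1 and IGLC7 transcripts (GENCODE 29) were 87.2% identical, and over 461 bases IGLL1 and IGLC2 were 86.8% identical. Of the 376 stretches of 25 bases in the last 400 bases of IGLL1, 16 occurred in IGLC7, 5 in IGLC2 and 20 in IGLC3, and no stretch of 50 bases did. IGLC2 and IGLC3 were 99.1% identical, so reads may have been split between them. How reads that fit several of these genes were counted is not given in the sources used here, and the IGLL1 value is uncertain to that extent.

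The lambda genes rose as well, with larger fitted changes than IGLL1, a difference that was not tested. IGLC7 went from 1893 ± 117 CPM at day 4 to 2273 ± 83.1 CPM at day 10 and 2125 ± 130 CPM at day 13, and IGLC3 from 580 ± 28.4 to 702 ± 50.8 and 655 ± 60.4 CPM. IGLC2 went from 358 ± 18.0 to 485 ± 58.0 and 439 ± 46.0 CPM. Their log2 fold changes against day 4 were 0.20, 0.24 and 0.39 at day 10 and 0.15, 0.17 and 0.29 at day 13, in the order IGLC7, IGLC3, IGLC2, all with an adjusted p of at most 0.0156 (limma-voom). Summed over IGLL1 and these lambda genes, the level was 4205 ± 162 CPM at day 4, 4976 ± 184 CPM at day 10 and 4712 ± 242 CPM at day 13. IGLL1 took 32.7 ± 1.57% of that sum at day 4, 30.5 ± 1.34% at day 10 and 31.8 ± 1.57% at day 13. The part of misassigned reads in the IGLL1 change was not tested.

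VPREB1, the partner of IGLL1, was at 474 ± 33.6, 507 ± 36.4 and 504 ± 30.2 CPM at days 4, 10 and 13. Its mean too was higher at both later days in 4 of 4 constructs, but it was not called (adjusted p of 0.75 and 0.811, limma-voom). The share of all genes with a higher mean at both later days in 4 of 4 constructs was not counted. The 95% interval of its log2 fold change at day 13 against day 4 ran from 0.00 to 0.14 and that of IGLL1 from 0.09 to 0.19. The ratio of IGLL1 to VPREB1 was 2.91 ± 0.237, 3.01 ± 0.280 and 2.97 ± 0.237 at the 3 days.

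The signaling members had differences between days that did not pass the adjustment. CD79B was at 362 ± 17.1 CPM at day 4 (lowest 342, median 358, highest 398), at 396 ± 31.4 CPM at day 10 (lowest 342, median 396, highest 449) and at 365 ± 23.0 CPM at day 13 (lowest 307, median 367, highest 389). It was thus highest at day 10 in 4 of 4 constructs, and the share of all genes with this pattern was not counted. Its log2 fold changes were 0.10 (SE 0.04) from day 4 to day 10 (adjusted p of 0.571, limma-voom) and -0.09 (SE 0.04) from day 10 to day 13 (adjusted p of 0.905). Two-sided exact permutation tests within constructs gave an unadjusted p of 0.0095 and 0.015. At day 10 against day 4, 3 members and 1194 of 17676 genes had an unadjusted p under 0.05 (limma-voom). SYK was at 218 ± 17.6 CPM at day 4 (lowest 194, median 222, highest 245) and at 235 ± 16.9 CPM at day 10 (lowest 201, median 235, highest 262), with a log2 fold change of 0.11 (SE 0.06, adjusted p of 0.739). The exact permutation test within constructs gave SYK an unadjusted p of 0.0975. CD79A was at 90.2 ± 10.1, 88.6 ± 15.3 and 82.3 ± 12.5 CPM, and BLNK at 93.8 ± 9.36, 85.1 ± 11.9 and 89.9 ± 14.6 CPM at days 4, 10 and 13. The samples of all days overlapped for each of these genes.

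No recombination member was called between days. RAG1 was at 409 ± 27.6, 402 ± 41.4 and 418 ± 32.9 CPM and RAG2 at 70.3 ± 10.6, 65.2 ± 13.1 and 67.7 ± 6.35 CPM at days 4, 10 and 13. DNTT was at 720 ± 35.7, 709 ± 42.0 (lowest 657, median 694, highest 774) and 728 ± 30.9 CPM (lowest 675, median 720, highest 765). DNTT had a log2 fold change of 0.07 (SE 0.03) at day 13 against day 10 with an adjusted p of 0.905 (limma-voom). The exact permutation test within constructs gave an unadjusted p of 0.247 for that comparison. In that comparison 0.0226% of genes were called by limma-voom, and 0 members were by limma-voom, edgeR or DESeq2. An unadjusted p under 0.05 was found for 2 members and for 956 of 17676 genes (limma-voom). The DNTT mean was higher at day 13 than at day 10 in 2 of 4 constructs. The ratio of RAG1 to RAG2 was 5.92 ± 0.854 at day 4, 6.39 ± 1.39 at day 10 and 6.23 ± 0.805 at day 13.

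Genes of the surrounding pathway were counted in the same comparisons. Of 30 further genes of receptor signaling, 28 were tested and none was called in a comparison of constructs (limma-voom). At day 13 against day 4, where 0.481% of all genes were called, 2 of the 28 fell: PIK3AP1, an adaptor for PI3 kinase, by 0.15 on the log2 scale (345.9 CPM on average, adjusted p of 0.24), and PIK3R1, a regulatory subunit of that kinase, by 0.34 (78.2 CPM, adjusted p of 0.242). Both lie close to the threshold of 0.25. The median log2 fold change of the 28 genes was -0.03, against 0.00 over all genes. GRB2, an adaptor that binds BLNK, was at 205 ± 19.7 CPM, below SYK. Of the kinases near SYK, BTK was at 53.2 ± 10.8 CPM, LYN at 37.2 ± 6.94 CPM and BLK at 33.2 ± 8.91 CPM, all below SYK. The SYK relative ZAP70, better known from T cells, was at 39.6 ± 9.45 CPM.

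Of 18 genes that join the breaks made by RAG1 and RAG2 or act with them, 17 were tested. HMGB2, a cofactor that bends DNA for the RAG proteins and also acts in dividing cells, was at 1340 ± 73.8 CPM and rose by day 13 against day 4 (log2 fold change 0.12, SE 0.02, adjusted p of 0.000502, limma-voom). HMGB1 was at 1162 ± 57.6 CPM and the end-binding protein XRCC5 at 380 ± 27.4 CPM. HMGB2 was the 1 gene of the 17 called at day 13 against day 4, against 0.481% of all genes, and no gene of this list was called in a comparison of constructs. Of 16 regulators of the B lineage, all 16 were tested, and 1 of them, TCF3, was called, again against 0.481% of all genes, with a log2 fold change of 0.15 (SE 0.04, adjusted p of 0.212) at day 13 against day 4. TCF3, EBF1 and SOX4 (339 ± 30.99 CPM) were the most abundant of them.

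Each member was also compared with the other genes above 50 CPM (4114 genes searched), by Pearson's r over the 12 means of construct and day, to find the genes with the most similar pattern. These means share libraries and depth, and with 12 points and 4114 genes values of this size are a description only. IGLL1 was most like PFKP (r = 0.880), VPREB1 like NAT10 (r = 0.867), DNTT like SMIM15 (r = 0.867), and RAG1 like HARS1 (r = 0.871). RAG2 was most like GSS (r = 0.852), BLNK like FOXRED1 (r = 0.888), CD79A like RBM15B (r = 0.841), CD79B like SMARCB1 (r = 0.852), SYK like CLNS1A (r = 0.817) and VPREB3 like NUMB (r = 0.871). The second closest gene was TPI1 for IGLL1 (r = 0.836), YBX1P1 for VPREB1 (r = 0.853) and TRIM37 for DNTT (r = 0.862). It was RPL36AP16 for RAG1 (r = 0.861), GRB2 for RAG2 (r = 0.825) and ADIPOR2 for BLNK (r = 0.886). For CD79A it was EXOSC10 (r = 0.835), for CD79B RBM6 (r = 0.838) and for VPREB3 RNF114 (r = 0.842). For SYK it was a gene without a symbol (r = 0.789). No member was among the genes named for another member.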

How the data were processed

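Bulk RNA of 31 NALM-6 samples was measured by prime-seq, a 3′ UMI protocol. The authors deposited 1 table of raw UMI counts with 30667 Ensembl gene identifiers. The submitters' processing notes name STAR 2.6.0a and human and mouse genome builds; the annotation and the handling of reads that match several genes are, in the sources used here, not given. Symbols were matched for 30548 identifiers, and coordinates are from GENCODE 29.

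Samples were grouped by construct and day from the labels. Nothing in the labels says that replicates came from separate transductions, so p-values measure the spread between these samples. Genes above 1 CPM in at least 1/3 of samples were normalized by TMM (edgeR 4.0.16) and tested by limma-voom (limma 3.58.1, R 4.3.3), with construct and day as terms, at an adjusted p of at most 0.25. SE and 95% intervals are from that fit. Single values were compared by two-sided exact permutation tests of CPM within day or construct, computed for the 8 member values with an unadjusted p under 0.05 or a call, and not adjusted. Other settings tried were DESeq2 1.42.0, its size factors, edgeR's quasi-likelihood test, no filter, log2 total UMIs, a replicate block, single days, 1 mean per group, all samples, a threshold of 0.05 and each sample left out.

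The members and lists were chosen with earlier results of these data known. All 10 members were described, and fitted changes printed where the unadjusted p was under 0.05 or the gene was called, besides intervals; from other lists the 3 genes with the most UMIs and those called were named (some genes of the lists are not reported here), and further markers were added after their values were seen. On simulated counts (17683 genes, 200 changed 2-fold), limma-voom recovered 92% for strong KD, with 49 wrong calls (21.0% of calls). For day 13 against day 4 (17676 genes, 200 changed 2-fold) it recovered 100%, with 68 wrong calls (25.4% of calls). Smaller changes were not simulated. Transcripts were aligned locally (Biopython 1.88). Samples with the same replicate number did not deviate together (mean r -5.27e-05 over 149 pairs, from -0.0519 to 0.0473), so numbers were not taken as pairs.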

Additional observations from a re-analysis of the deposited data

Results flagged for a closer look

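Samples far from the rest of their group were sought for each member among the samples of 1 construct at days 10 and 13 and among those of days 4 and 10. Of 60 groups, 3 held such a sample, and chance gives about 1 in 20. VPREB1 was at 444 CPM (139 UMIs) in SFFV/sh-XIAP day 10 replicate 2, the smallest library, against 510 CPM in the next of the 6 samples. VPREB1 was at 397 CPM (148 UMIs) in EF1a/sh-CTRL day 4 replicate 2, the smallest library of that day, against 460 CPM in the next of the 10 samples. BLNK was at 103 CPM (57 UMIs) in EF1a/sh-XIAP day 13 replicate 2, against 85.7 CPM in the next of the 5 samples. The part of library size in these values was not tested.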

How the results depend on the processing

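The number of members called kept its value in 338 of 341 recomputations over the 11 comparisons. The exceptions were day 10 against day 4, with 0 members by the edgeR quasi-likelihood test and 6 without the filter on low counts, and day 13 against day 4, with 0 by edgeR. Without the filter, 8817 of 29756 genes were called at day 10 against day 4, CD79B and SYK among them (adjusted p of 0.0996 and 0.155, limma-voom), and the cause was not tested. The replicate block left 1 member, IGLL1, called in each of these comparisons, and 0 in the others. A block within construct, run for the 3 comparisons of days, and leaving out the 2 libraries under 320000 UMIs, run for all but those of day 4 alone, gave the same counts; both were added after the data were seen. The adjusted p of IGLL1 ran from 0.00028 to 0.555 at day 10 and from 3.38e-05 to 0.325 at day 13 over 40 alternatives. Counts over all genes moved more: from 0 to 48 for strong KD at days 10 and 13 (14 in the main analysis), 0 to 24 for moderate KD (3), 0 to 37 for their difference (1), 0 to 5 for the promoter (1), 0 to 25, 0 to 29 and 0 to 15 at day 4 (2, 9 and 3), 18 to 8817 at day 10 (50), 36 to 115 at day 13 (85), 0 to 91 between these (4) and 0 to 5 for the change of the strong KD effect (0). Depth limits CD79A, BLNK and RAG2 most.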
